A study of Mus musculus with 9 samples.

Results

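The genes described here are the members of the Six-, Eya- and Dach-gene families that the array annotation names alone on at least 1 probe set: Six2, Six4 and Six5, Eya1, Eya2, Eya3 and Eya4, and Dach1 and Dach2. They are 9 of the 18193 genes measured in this way and hold 23 of the 45037 probe sets tested. The forelimb buds of mouse embryos at E10.5 were sorted for GFP, and transcripts were measured on 9 Affymetrix expression arrays in 3 groups of 3. The PAX3-FKHR GFP+ group came from Pax3PAX3-FKHR/GFP embryos and the control GFP+ group from Pax3GFP/+ embryos of the C57 BL6/DBA2 background, and both were set against GFP- cells, whose genotype is not given in the labels and is described in different ways in the methods (Pax3GFP/+ or Pax3+/+). Both GFP+ groups carry the Pax3GFP allele, in which GFP was targeted into the Pax3 locus, so that GFP marks cells in which the Pax3 locus is active. In the PAX3-FKHR GFP+ cells the other Pax3 allele encodes PAX3-FKHR, the DNA-binding part of PAX3 joined to the activation domain of FKHR, with an nlacZ reporter, and it was switched on by PGK-Cre, which acts in all tissues. These embryos therefore had no intact Pax3 allele. Limb buds were pooled over many embryos by genotype before sorting, so that an array stands for a pool and not for an embryo. Fewer cells of a type and less RNA per cell cannot be told apart in such samples.

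Six-family proteins are homeodomain transcription factors that bind MEF3 sites in muscle regulatory regions. Eya proteins do not bind DNA; they join Six-family proteins as coactivators and carry a phosphatase domain. Dach proteins are related to the Ski corepressors and can turn a Six-containing complex from activation to repression. In mouse embryos Six- and Eya-family genes act upstream of Pax3 in the hypaxial dermomyotome, the source of the muscle progenitors that migrate into the limb.

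Levels are log2 RMA values as deposited, and the main probe set of a gene is the brightest one by its mean over the 9 arrays. A log2 fold change is a difference of group means, first group minus second group, and is given with its standard error (SE) in the limma fit. A gene was called higher or lower where the Benjamini-Hochberg adjusted p over all probe sets tested was under 0.05 and the log2 fold change was at least 0.5 in size. A bright and a dim probe set cannot be ranked against each other, so levels are compared only within a probe set.

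In the forelimb bud, the transcripts of Eya1, Eya2, Six2 and Dach2 were higher in GFP+ than in GFP- cells. These 4 of the 9 genes were called higher in control GFP+ than in GFP- cells, where 2.79% of all genes were. The same 4 genes were called higher in PAX3-FKHR GFP+ than in GFP- cells, against 3.9% of all genes. The comparisons with GFP- cells share the GFP- arrays. In limma, 0 of the 9 were called lower in the control GFP+ cells than in the GFP- cells (1.93% of all genes). At an unadjusted p under 0.05 in limma 0 were lower, against 4682 of all 45037 probe sets. In PAX3-FKHR GFP+ against GFP- cells 0 were called lower in limma (2.79% of all genes). At an unadjusted p under 0.05 there 1 was lower, Six5, against 4735 of the probe sets. The local pooled error test called 0 lower in both comparisons. The median log2 fold change of the 9 was 0.67 in control GFP+ against GFP- cells and 0.52 in PAX3-FKHR GFP+ against GFP- cells, beside 0.08 and 0.05 over all genes.

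Between PAX3-FKHR GFP+ and control GFP+ cells, 0 of the 9 genes were called higher, against 0.61% of all genes, and 0 were called lower, against 0.203% of all genes. At an unadjusted p under 0.05, limma gave 0 higher and 2 lower (Dach1 and Six5), against 1584 higher and 1643 lower of all 45037 probe sets. The local pooled error test called 0 in either direction. The gene nearest to a call was Dach1, lower by 0.90 log2 units. The median of the 9 was -0.06, beside -0.03 over all genes.

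**Figure D1:**
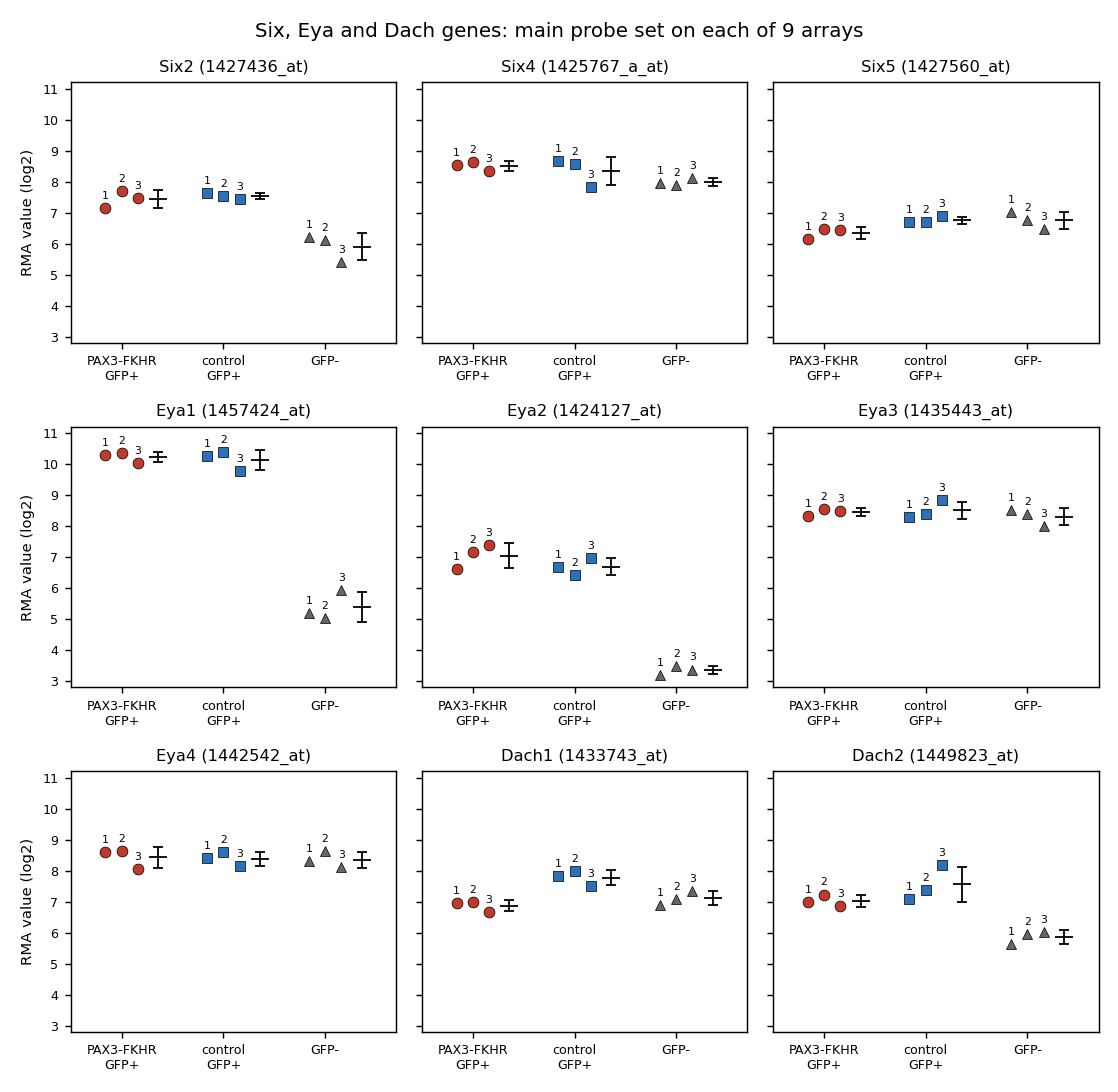
RMA value on the log2 scale (vertical axis, the same range in every panel) of the main probe set of each of the 9 genes on each array; red circles are PAX3-FKHR GFP+, blue squares control GFP+ and grey triangles GFP- arrays, small digits are replicate numbers, and the black bar is the mean ± SD of 3 arrays. Eya1, Eya2, Six2 and Dach2 lay higher on every GFP+ array than on every GFP- array, and Dach1 lay lower on every PAX3-FKHR GFP+ array than on every control GFP+ array.

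Eya1, the coactivator whose loss causes branchio-oto-renal syndrome in humans, is on chromosome 1. Its main probe set (1457424_at) read 10.30, 10.35 and 10.03 on the PAX3-FKHR GFP+ arrays, 10.25, 10.38 and 9.78 on the control GFP+ arrays and 5.19, 5.03 and 5.93 on the GFP- arrays. Every GFP+ array lay above every GFP- array, and replicate 3 was the highest of the GFP- arrays. In control GFP+ against GFP- cells the log2 fold change was 4.75 (SE 0.24, adjusted p = 9.67e-06), a fold change of 27.0. By this log2 fold change Eya1 was rank 3 from the top of the 18193 genes. PAX3-FKHR GFP+ against GFP- cells gave 4.85 (SE 0.24, adjusted p = 2.90e-06), rank 11 from the top.

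With PAX3-FKHR the level of Eya1 was not separable from the control: the log2 fold change was 0.09 (95% interval -0.45 to 0.64, adjusted p = 0.950). The other Eya1 probe sets were also higher in GFP+ than in GFP- cells, by less. Probe set 1421727_at averaged 4.54 ± 0.10 in control GFP+ and 3.67 ± 0.19 in GFP- cells (SD, n = 3 each), a log2 fold change of 0.87 (adjusted p = 0.0019). Probe set 1443117_at read 6.85 to 7.75 in PAX3-FKHR GFP+ cells, 6.34 to 6.72 in control GFP+ cells and 5.04, 5.05 and 6.24 in GFP- cells. It was called higher in PAX3-FKHR GFP+ than in GFP- cells (1.78, adjusted p = 0.0087), while control GFP+ against GFP- cells gave 1.06 (adjusted p = 0.0898). It was also the one Eya1 probe set on which every PAX3-FKHR GFP+ array lay above every control GFP+ array, by 0.72 on the means (95% interval -0.01 to 1.44, adjusted p = 0.706). With the mean of all its probe sets in place of the main one, the log2 fold change of Eya1 was 2.23 in control GFP+ against GFP- cells and 2.48 in PAX3-FKHR GFP+ against GFP- cells, and both remained called.

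Eya2, on chromosome 2, is the Eya coactivator that in chick somites acts with Dach2. It has 1 probe set (1424127_at), at 6.60, 7.16 and 7.38 in PAX3-FKHR GFP+ cells, 6.69, 6.43 and 6.96 in control GFP+ cells and 3.21, 3.47 and 3.37 in GFP- cells. The GFP- arrays lay close together and far below both GFP+ groups. They also lay below the lower quartile of all probe sets on those arrays (3.65 to 3.68), so that Eya2 is not shown to be above background in GFP- cells and the fold changes against them may be lower bounds. The log2 fold change was 3.34 in control GFP+ against GFP- cells (SE 0.21, adjusted p = 2.61e-05, a fold change of 10.1) and 3.69 in PAX3-FKHR GFP+ against GFP- cells (SE 0.21, adjusted p = 5.58e-06, a fold change of 12.9). Between PAX3-FKHR GFP+ and control GFP+ cells the groups overlapped, with a difference of 0.35 (95% interval -0.11 to 0.81, adjusted p = 0.776).

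Eya3 and Eya4, of which Eya4 is known for hereditary deafness and cardiomyopathy in humans, had overlapping arrays in the 3 groups on their main probe sets. Eya3 (1435443_at) averaged 8.45 ± 0.12 in PAX3-FKHR GFP+, 8.50 ± 0.28 in control GFP+ and 8.31 ± 0.26 in GFP- cells (SD, n = 3 each). Eya4 (1442542_at) averaged 8.42 ± 0.34, 8.38 ± 0.23 and 8.35 ± 0.25 in the same groups. Neither pair of neighbouring groups differed beyond this spread in either gene. For control GFP+ against GFP- cells, the 95% interval of the difference ran from -0.21 to 0.61 for Eya3 and from -0.42 to 0.49 for Eya4. On a second probe set of each gene the GFP+ arrays did lie above the GFP- arrays, but these probe sets were not called. They were 1420933_a_at of Eya3, with 0.44 in control GFP+ against GFP- cells (adjusted p = 0.105), and 1456665_at of Eya4, with 0.54 (adjusted p = 0.147). The other Eya3 and Eya4 probe sets had means under 4.4 in every group.

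Among the Six-family members measured here, Six2 was the one called between sorted populations on its main probe set. Six2, which keeps nephron progenitors undifferentiated in the kidney, is on chromosome 17 and has 1 probe set (1427436_at). It read 7.14, 7.70 and 7.47 in PAX3-FKHR GFP+ cells, 7.63, 7.55 and 7.43 in control GFP+ cells and 6.21, 6.10 and 5.40 in GFP- cells. No GFP+ array reached down to a GFP- array, and GFP- replicate 3 was the lowest of all 9. The log2 fold change was 1.63 in control GFP+ against GFP- cells (SE 0.22, adjusted p = 0.0025, a fold change of 3.10) and 1.53 in PAX3-FKHR GFP+ against GFP- cells (SE 0.22, adjusted p = 0.0025, a fold change of 2.90). PAX3-FKHR GFP+ cells differed from control GFP+ cells by -0.10 (95% interval -0.60 to 0.40, adjusted p = 0.942).

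Six4, on chromosome 12, acts in mouse muscle together with other Six factors. Its main probe set (1425767_a_at) read 8.53, 8.64 and 8.33 in PAX3-FKHR GFP+ cells, 8.66, 8.55 and 7.81 in control GFP+ cells and 7.95, 7.87 and 8.13 in GFP- cells. Control GFP+ replicate 3 stood below every GFP- array, apart from the other control GFP+ arrays. The log2 fold change was 0.36 in control GFP+ against GFP- cells (SE 0.22, adjusted p = 0.361) and 0.52 in PAX3-FKHR GFP+ against GFP- cells (SE 0.22, adjusted p = 0.206). Without control GFP+ replicate 3, the difference of control GFP+ from GFP- cells was 0.63 and was called (adjusted p = 0.0341).

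A pair of further Six4 probe sets did not have this array apart. Probe set 1439753_x_at read 7.75, 7.67 and 7.63 in PAX3-FKHR GFP+ cells, 7.54, 7.69 and 7.73 in control GFP+ cells and 6.98, 7.08 and 7.34 in GFP- cells. It was called higher in PAX3-FKHR GFP+ than in GFP- cells (0.55, adjusted p = 0.0432), and control GFP+ against GFP- cells gave 0.52 (adjusted p = 0.0589). Probe set 1456862_at gave 0.55 (adjusted p = 0.0614) and 0.50 (adjusted p = 0.0917) in the same comparisons, with no overlap between GFP+ and GFP- arrays. On the last one, 1427701_a_at, all arrays lay between 3.53 and 3.84. Between PAX3-FKHR GFP+ and control GFP+ cells the main probe set differed by 0.16 (95% interval -0.32 to 0.63), and without control GFP+ replicate 3 by -0.11. Neither value was called.

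The sequence before the start of Six4 is shown because it was the one member window that held the core of a MEF3 site, the sequence that Six-family factors themselves bind. RefSeq start windows (GRCm38.p6, 250 bases before to 50 after a start) matched 7 of the 9 genes, in 10 windows. They were searched on both strands for TCAGGTT, the MEF3 core, which 4.07% of all 32851 windows held, and for GTCACG, the core of paired-domain sites such as those of Pax3, which 8.22% held; the motifs do not overlap. The MEF3 core stood 97 to 91 bases before a Six4 start on the opposite strand, so that it is printed as its reverse complement. The paired-domain core stood 187 to 182 bases before the same start, which is also 7 to 2 bases before a second annotated Six4 start, and once after the start of Eya3. The windows of Six2, Six5, Eya4, Dach1 and Dach2 held neither. Such a match is a description of the letters and not a bound site. Capitals mark the motif in the Six4 stretches, which are on the minus strand at chr12:73113324-73113353 and chr12:73113415-73113444. The 100 bases before the start of Six2 (chr17:85688255-85688354, minus strand) are given for comparison. Among the Six-family members measured here, Six2 was the one called higher in GFP+ cells on its main probe set.
Six4 MEF3 core: ggcctgggggaAACCTGAtcggccagatcc
Six4 paired-domain core: gcaaccggaggaGTCACGttgggggaacgg
Six2 upstream: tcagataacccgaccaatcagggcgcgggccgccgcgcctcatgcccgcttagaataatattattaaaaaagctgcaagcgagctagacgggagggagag

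Six5, on chromosome 7, is the neighbour of the myotonic dystrophy kinase gene. Its probe set (1427560_at) read 6.13, 6.46 and 6.45 in PAX3-FKHR GFP+ cells, 6.68, 6.68 and 6.88 in control GFP+ cells and 7.02, 6.76 and 6.48 in GFP- cells. The PAX3-FKHR GFP+ arrays were the 3 lowest of the 9, while control GFP+ and GFP- arrays were mixed. The difference was -0.40 from control GFP+ cells (SE 0.17, 95% interval -0.78 to -0.03, adjusted p = 0.658) and -0.41 from GFP- cells (SE 0.17, 95% interval -0.78 to -0.03, adjusted p = 0.208). Neither was called, and the 2 comparisons share the PAX3-FKHR GFP+ arrays.

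**Figure D2:**
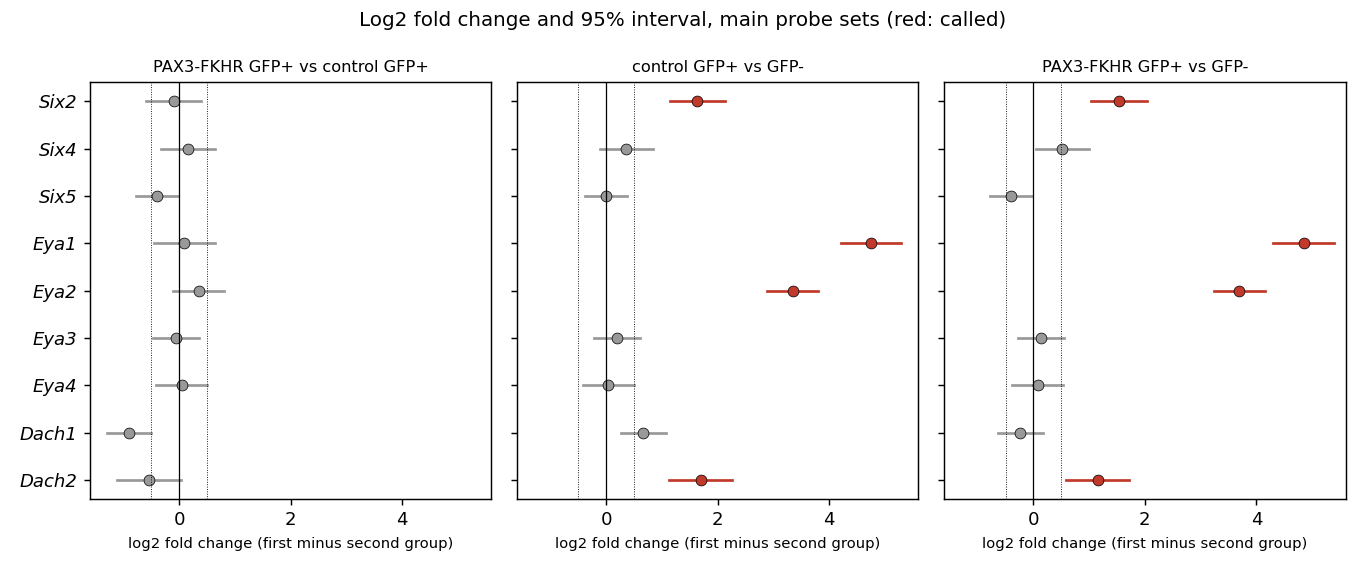
Log2 fold change of the main probe set (horizontal axis, first minus second group) with its 95% interval from the limma fit for the 9 genes, 1 panel for each comparison; red marks genes that were called, grey those that were not, and dotted lines stand at -0.5 and 0.5. Eya1 and Eya2 lie beyond 3 in both comparisons with GFP- cells, and Dach1 is the member farthest below 0 in PAX3-FKHR GFP+ against control GFP+ cells.

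Dach1 and Dach2 encode the corepressors. Dach1, on chromosome 14, read 6.96, 6.99 and 6.67 in PAX3-FKHR GFP+ cells, 7.82, 8.00 and 7.50 in control GFP+ cells and 6.90, 7.08 and 7.34 in GFP- cells on its main probe set (1433743_at). The control GFP+ arrays were the 3 highest, and the other 2 groups overlapped. In PAX3-FKHR GFP+ against control GFP+ cells the log2 fold change was -0.90 (SE 0.18, 95% interval -1.30 to -0.50), a ratio of 0.535. The unadjusted p was 4.81e-04 and the adjusted p 0.0719, so that Dach1 was not called. By log2 fold change it was rank 84 from the bottom of the 18193 genes.

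Deviations from the group means correlated by 0.16, 0.47 and 0.29 between same-numbered arrays of the GFP+ groups. The titles state no pairing, so treating these arrays as pairs rests on the same data. Between them the Dach1 differences were -0.87, -1.01 and -0.83 for replicates 1, 2 and 3. With replicate numbers as the block in a fit of these 6 arrays, Dach1 was called lower (adjusted p = 0.0365), while with the block on all 9 arrays (adjusted p = 0.133) and on these 6 arrays without a block (adjusted p = 0.163) it was not. It was also called lower without control GFP+ replicate 3 (-1.04, adjusted p = 0.0432). In control GFP+ against GFP- cells Dach1 differed by 0.67 (SE 0.18, adjusted p = 0.0567), which was not called, and without control GFP+ replicate 3 it was 0.80 and called (adjusted p = 0.0258). PAX3-FKHR GFP+ against GFP- cells gave -0.24 (95% interval -0.64 to 0.16, adjusted p = 0.526).

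The other Dach1 probe sets had the same order of means between the GFP+ groups. Probe set 1420695_at read 5.72, 5.56 and 5.62 in PAX3-FKHR GFP+ cells, 6.14, 6.29 and 5.84 in control GFP+ cells and 5.24, 5.75 and 5.67 in GFP- cells. Its PAX3-FKHR GFP+ arrays lay below all control GFP+ arrays, by 0.46 on the means (log2 fold change -0.46, adjusted p = 0.573). On 1420694_a_at the control GFP+ arrays scattered, at 5.48, 4.68 and 7.59, against 4.74, 4.52 and 5.04 in PAX3-FKHR GFP+ and 4.78, 4.49 and 4.43 in GFP- cells. Replicate 3 was the farthest from the other groups, replicate 1 also lay above all their arrays, and replicate 2 lay among them, and the log2 fold change of -1.15 in PAX3-FKHR GFP+ against control GFP+ cells had an SE of 0.56. A further probe set has no symbol in the annotation used and is named Dach1 in the tables of the study. Its mean was highest in GFP- cells, with 6.74, 4.92 and 6.01 in PAX3-FKHR GFP+ cells, 6.51, 5.29 and 7.66 in control GFP+ cells and 7.54, 7.43 and 8.24 in GFP- cells, and it was not called in any of the comparisons.

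The 100 bases before the RefSeq start of Dach1 (chr14:98169766-98169865, minus strand, GRCm38.p6) are shown because Dach1 was the member nearest to a call with PAX3-FKHR; they held neither motif searched.
Dach1 upstream: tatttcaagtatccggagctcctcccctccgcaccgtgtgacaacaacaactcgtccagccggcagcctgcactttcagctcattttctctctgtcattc

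Dach2, on chromosome X, was called higher in both GFP+ groups than in GFP- cells. Its main probe set (1449823_at) read 6.97, 7.23 and 6.85 in PAX3-FKHR GFP+ cells, 7.10, 7.38 and 8.19 in control GFP+ cells and 5.62, 5.95 and 6.02 in GFP- cells. GFP+ and GFP- arrays did not overlap, and control GFP+ replicate 3 was the highest array. The log2 fold change was 1.69 in control GFP+ against GFP- cells (SE 0.26, adjusted p = 0.0043, a fold change of 3.23) and 1.15 in PAX3-FKHR GFP+ against GFP- cells (SE 0.26, adjusted p = 0.0225, a fold change of 2.23). Without any 1 of the 3 PAX3-FKHR GFP+ arrays or of GFP- replicates 1 and 2, the call in PAX3-FKHR GFP+ cells was lost (adjusted p between 0.0514 and 0.102), with a log2 fold change of at least 1.03. The second Dach2 probe set (1458012_at) was called in the same comparisons, at 1.05 (adjusted p = 0.0095) and 0.81 (adjusted p = 0.0279).

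Between PAX3-FKHR GFP+ and control GFP+ cells the main Dach2 probe set differed by -0.54 (95% interval -1.11 to 0.03, adjusted p = 0.724). The differences of same-numbered arrays were -0.13, -0.15 and -1.34, so that most of the mean came from replicate 3. Without control GFP+ replicate 3 the log2 fold change was -0.22.

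**Figure D3:**
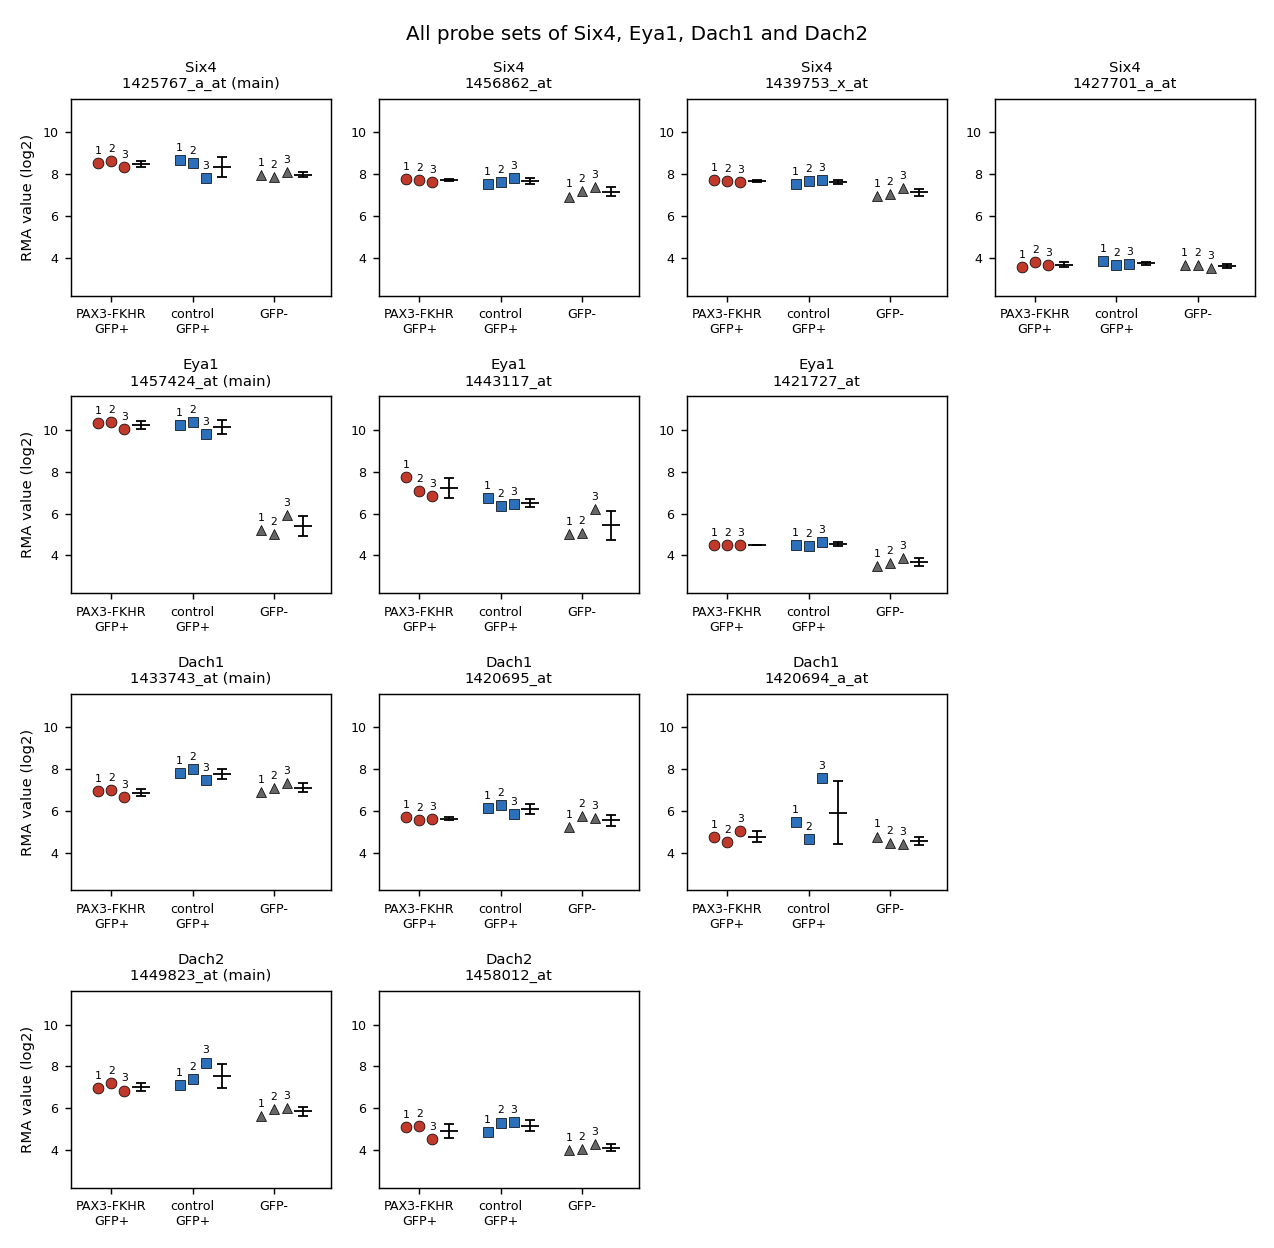
RMA value on the log2 scale (vertical axis) of every probe set with a single symbol for Six4, Eya1, Dach1 and Dach2, with arrays, symbols and mean ± SD (3 arrays) by group, from PAX3-FKHR GFP+ on the left to GFP- on the right. Control GFP+ replicate 3 reads 7.81 on the main Six4 probe set and 7.59 on 1420694_a_at of Dach1, apart from the other control GFP+ arrays on both.

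Counted over probe sets, 6 of the 23 were called higher in control GFP+ than in GFP- cells (1.84% of all probe sets) and 8 in PAX3-FKHR GFP+ than in GFP- cells (2.8% of all probe sets). Taken by main probe set and by overlap of the arrays alone, 5 of the 9 genes had every control GFP+ array above every GFP- array, against 17.2% of all genes, and Dach1 was the one that was not called. For PAX3-FKHR GFP+ and GFP- arrays there were 5 such genes, against 17.8% of all genes, and the one not called was Six4. In PAX3-FKHR GFP+ against control GFP+ cells 2 genes, Six5 and Dach1, had every array of the first group below every array of the second, against 8.88% of all genes, while 0 had the reverse, against 5.42%. Below every GFP- array lay 0 genes on the control GFP+ arrays (6.96% of all genes) and 1, Six5, on the PAX3-FKHR GFP+ arrays (10.1% of all genes).

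**Figure D4:**
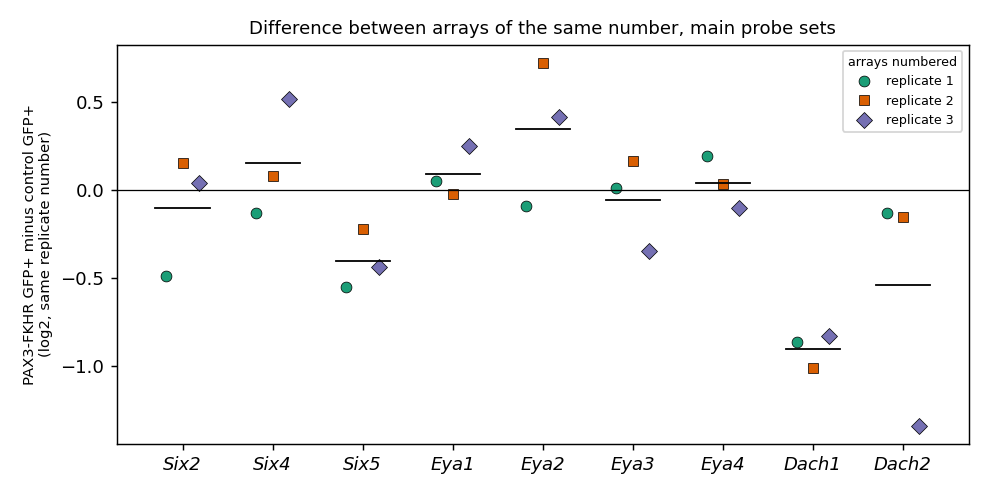
PAX3-FKHR GFP+ minus control GFP+, taken between arrays that share a replicate number (vertical axis, log2 units) for the main probe set of each gene; green circles, orange squares and purple diamonds are replicates 1, 2 and 3 and the bar is their mean. For Dach1 the 3 differences lie between -1.01 and -0.83, while for Dach2 replicate 3 alone reaches -1.34.

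The genes most like each called member were taken by Pearson's r over the 9 arrays among the 910 genes whose group means spanned at least 1 log2 unit. The arrays are 3 groups, so that a high r mostly describes the step between GFP+ and GFP- cells. Eya1 was closest to Met (r = 0.991), the receptor that muscle progenitors need to leave the somite, then to Myf5 (0.991), the myogenic determination factor, and Lmo3 (0.989). Eya2 was closest to Adamts16 (0.996), Pcdh17 (0.995) and Ube2ql1 (0.992). For Six2 the nearest genes were Pknox2 (0.979), a homeodomain factor, Cdkn1a (0.971), a cell cycle inhibitor, and Lmcd1 (0.968). Dach2 had Mllt11 (0.987), Gng11 (0.970) and Cnrip1 (0.968) nearest. All 12 were called higher in both GFP+ groups than in GFP- cells, which the way of choosing them favours.

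Partners and corepressors of the network were read on a list of 17 genes, of which 15 were measured. In PAX3-FKHR GFP+ against control GFP+ cells 1 of the 15 was called, Skor1, a corepressor of the Ski and Dach kind that binds Lbx1. Skor1 averaged 6.63 ± 0.32 in PAX3-FKHR GFP+, 4.79 ± 0.27 in control GFP+ and 4.02 ± 0.14 in GFP- cells (SD, n = 3 each). Its log2 fold change was 1.84 in PAX3-FKHR GFP+ against control GFP+ cells (SE 0.19, adjusted p = 0.0017), 0.77 in control GFP+ against GFP- cells (adjusted p = 0.0358) and 2.61 in PAX3-FKHR GFP+ against GFP- cells (adjusted p = 2.48e-05). Sobp, which codes for a Six-binding protein, was called higher in control GFP+ than in GFP- cells (1.39, SE 0.32, adjusted p = 0.0309), with 6.06 ± 0.32 in PAX3-FKHR GFP+, 6.87 ± 0.73 in control GFP+ and 5.48 ± 0.27 in GFP- cells.

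The remaining 13 partners were not called in any comparison. They include Tle1, a Groucho corepressor (0.79 in control GFP+ against GFP- cells, adjusted p = 0.105), Ep300, a histone acetyltransferase (-0.40 there), and Tle2 and Tle4, Groucho corepressors too (-0.79 and -0.44 in PAX3-FKHR GFP+ against GFP- cells). The median log2 fold change of the 15 was -0.10 in PAX3-FKHR GFP+ against control GFP+ cells, -0.03 in control GFP+ against GFP- cells and -0.10 in PAX3-FKHR GFP+ against GFP- cells, beside -0.03, 0.08 and 0.05 over all genes.

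Upstream factors and reported targets of the network were read on a second list of 17 genes, all measured. Pax3 averaged 7.10 ± 0.25 in PAX3-FKHR GFP+, 9.70 ± 0.67 in control GFP+ and 5.03 ± 0.22 in GFP- cells (SD, n = 3 each). It was lower by 2.59 log2 units in PAX3-FKHR GFP+ than in control GFP+ cells (log2 fold change -2.59, adjusted p = 0.0036). This fall is set by the genotype, which has no intact Pax3 allele, and the paper treats it as a control. In PAX3-FKHR GFP+ against control GFP+ cells 2 of the 17 were called higher, against 0.61% of all genes. They were Pax7, the paralogue of Pax3 (1.45, SE 0.24, adjusted p = 0.0281), and Gdnf, a reported target of Six- and Eya-family proteins in the kidney (0.91, SE 0.14, adjusted p = 0.0200). Meox2, a homeodomain factor of limb muscle, differed by -0.81 (adjusted p = 0.0941).

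In control GFP+ against GFP- cells 11 of the 17 were called higher and 1 lower, and in PAX3-FKHR GFP+ against GFP- cells 11 were called higher and 2 lower. The members with the smallest adjusted p were Met (4.50 and 4.26), Myf5 (5.74 and 6.67), Lbx1, a homeodomain factor of migrating progenitors (5.02 and 4.69), and, in one comparison each, Pax3 (4.67 in control GFP+ against GFP- cells) and Gdnf (2.87 in PAX3-FKHR GFP+ against GFP- cells). Sall1, a zinc finger gene that Six-family factors activate in the kidney, was called lower in both GFP+ groups than in GFP- cells (-1.44 and -1.71), and Ccnd1, which encodes cyclin D1, was the second called lower in PAX3-FKHR GFP+ cells (-0.81); both are named after their values were seen. The median of the 17 was 0.03 in PAX3-FKHR GFP+ against control GFP+ cells, 1.96 in control GFP+ against GFP- cells and 2.08 in PAX3-FKHR GFP+ against GFP- cells. Over all genes it was -0.03, 0.08 and 0.05.

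Marker genes of the sorted populations moved with the same comparisons. The mean RMA value of 8 genes of myogenic progenitors was 8.74 to 8.97 on PAX3-FKHR GFP+ arrays and 8.76 to 8.91 on control GFP+ arrays. On GFP- arrays it was 4.89, 4.89 and 5.30, and all 8 were called higher in both GFP+ groups than in GFP- cells. Pax3 was among them in PAX3-FKHR GFP+ cells too (2.08), and what its probe set detects there was not tested. Between the GFP+ groups these genes did not all move alike. With PAX3-FKHR, Pax7 was called higher (1.45). Pax3 was called lower (-2.59), which the genotype sets in advance, since these embryos had no intact Pax3 allele. GFP- replicate 3, which had the highest myogenic mean of the GFP- arrays, was also the highest GFP- array for Eya1 and Dach2. It was not the highest for Eya2, and it was the lowest for Six2. The mean of 10 limb mesenchyme genes was 6.88 to 7.42 on PAX3-FKHR GFP+, 7.20 to 7.45 on control GFP+ and 9.09 to 9.49 on GFP- arrays. Lists of other cell types differed in direction. Of the neural lists, 4 of 5 neural crest and glia genes were called higher in control GFP+ than in GFP- cells and 3 of 5 in PAX3-FKHR GFP+ than in GFP- cells, and 4 and 5 of 8 neuronal genes. The neural crest mean was 7.05 to 8.14 in PAX3-FKHR GFP+, 6.81 to 8.37 in control GFP+ and 5.49 to 5.96 in GFP- cells, and the neuronal mean was 5.74 to 6.80, 6.01 to 6.22 and 4.45 to 4.51. Their part in the values of the 9 genes was not tested. Of 7 sclerotome and cartilage genes 1 was called higher and 3 lower in each GFP+ group than in GFP- cells. The higher one was Uncx in both, by 2.64 in control GFP+ and 4.39 in PAX3-FKHR GFP+ cells. The lower ones were Pax1 and Tbx18 in both, with Sox9 in control GFP+ and Col2a1 in PAX3-FKHR GFP+ cells. Of 8 ectoderm genes 2 were called lower in each, Cdh1 and Fgf8 in control GFP+ and Krt8 and Krt18 in PAX3-FKHR GFP+ cells. Fgf8 was called higher in PAX3-FKHR GFP+ than in control GFP+ cells (1.14, adjusted p = 0.0071). The 6 endothelial genes were not called. The mean of 7 blood genes varied between arrays of all groups, from 6.94 to 8.75 in PAX3-FKHR GFP+, from 6.59 to 8.76 in control GFP+ and from 7.50 to 10.57 in GFP- cells. Among them Klf1 was called lower than in GFP- cells in control GFP+ (-2.40, adjusted p = 0.0309) and PAX3-FKHR GFP+ cells (-2.43, adjusted p = 0.0264). Gata1 was called lower in PAX3-FKHR GFP+ cells only (-1.74, adjusted p = 0.0464), and the other blood genes were not called.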

How the data were processed

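RNA of each sorted pool was amplified in 2 cycles and hybridised to an Affymetrix mouse expression array. The authors made the deposited log2 values with RMA, whose version is not given in the sources used here: background was corrected, arrays were brought to a common distribution and probes were summarised per probe set. Present and absent calls were not used here. After 64 array controls were set aside, 45037 probe sets were tested, of which 34945 carry 1 gene symbol, 932 several and 9160 none. One limma model (limma 3.58.1, R 4.3.3) with an intensity trend covered all 9 arrays, and p-values were adjusted by the Benjamini-Hochberg method over all probe sets in each comparison. Precision is limited by having 3 arrays in a group, and an exact two-sided permutation test cannot go below p = 0.1. The same steps were tested on simulated data. The local pooled error test used by the study, which was rebuilt from its description, and the other settings listed in the closing section were run as alternatives.

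The named genes are all members, the 3 most alike genes of each called member, Pax3, and up to 4 genes per list and comparison with the smallest adjusted p. Members and lists were chosen with earlier results of these data known. Replicate numbers come from the sample titles. Deviations from the group means correlated by 0.16, 0.47 and 0.29 between same-numbered arrays of the GFP+ groups. In each case this was more than with any other number, so these were taken as pairs in the blocked fit. The titles do not state such a pairing, so it rests on the same data as the blocked fit. GFP- arrays did not pair. Start windows and chromosomes are those of RefSeq (GRCm38.p6). Some samples and genes of the study are not analysed here.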

Additional observations from a re-analysis of the deposited data

How the results depend on the processing

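Eya1, Eya2 and Six2 were called higher than in GFP- cells in both GFP+ groups under all 16 alternatives of each comparison, and Dach2 in control GFP+ cells likewise. Calls of Dach2 in PAX3-FKHR GFP+ against GFP- cells were lost only when single arrays were left out, and no call changed sign. The count of members called lower in PAX3-FKHR GFP+ against control GFP+ cells was 0 and became 1, always Dach1, with array weights (adjusted p = 0.0064), with the replicate block on the 6 arrays compared (0.0365), with a filter at the median value on 3 arrays, which kept 23557 probe sets (0.0486), with probe sets averaged per gene (0.0267) and without control GFP+ replicate 3 (0.0432). It was 0 to 1 when single arrays were left out, with Dach1 between -1.04 and -0.79, and over all alternatives the adjusted p of Dach1 ran from 0.0064 to 0.297, the highest by the local pooled error test. Dach1 in control GFP+ against GFP- cells was called without the intensity trend (0.0458), with array weights (0.0061), with the filter (0.0409) and with the mean of probe sets (0.0086). With array weights Six4 was called higher than in GFP- cells in control GFP+ (0.64, adjusted p = 0.0191) and PAX3-FKHR GFP+ cells (0.57, adjusted p = 0.0327). The replicate block changed no other call of a member. The cause of these changes was not tested.

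Over all probe sets, 178 were called higher and 64 lower in PAX3-FKHR GFP+ than in control GFP+ cells. The counts were 337 and 151 with array weights, 82 and 22 on 6 arrays, 281 and 95 with the replicate block on 6 arrays, 268 and 92 by the local pooled error test, and 73 to 133 and 25 to 59 without single arrays. In control GFP+ against GFP- cells 827 were called higher and 1804 lower; these counts were 1254 and 2488 with array weights, 394 and 1223 with the replicate block on 6 arrays, 368 and 1101 at a log2 fold change of 1, and 472 to 905 and 1070 to 1882 without single arrays. In PAX3-FKHR GFP+ against GFP- cells 1261 were called higher and 1800 lower, with 642 and 1005 at a log2 fold change of 1 and 742 to 1143 and 838 to 1547 without single arrays.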
